A study of Danio rerio with 12 samples.

Results

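The 9 genes described here encode enzymes that link sugar synthesis to the handling of amino acid nitrogen. They are pck1 and pck2, which encode phosphoenolpyruvate carboxykinases, glula and glulb (glutamine synthetase), got1, got2a and got2b (aspartate aminotransferases), agxtb (an alanine-glyoxylate aminotransferase) and tat (tyrosine aminotransferase). They were chosen by name, with earlier results of these data known, and all 9 were found on the array, by 24 of its 43603 probes. Of these 24 probes, 22 were bright enough to be tested.

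Transcripts were measured in embryos of zebrafish (Danio rerio), taken whole. The strain was AB wild-type, with no other allele named in the labels. There were 4 groups of 3 arrays, namely embryos of 24 or 72 hours post fertilisation (hpf) that were kept for 3 h in 0.1% DMSO, the solvent control, or in 25 µM beclomethasone. Beclomethasone is a synthetic glucocorticoid, a ligand of the receptor that cortisol activates in fish. The labels speak of triplicate experiments and not of separate clutches, so that p-values measure only the spread between these samples.

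Gluconeogenesis makes glucose from lactate, glycerol and the carbon of amino acids, and phosphoenolpyruvate carboxykinase catalyses one of its early committed steps, in the cytosol (pck1) or in mitochondria (pck2). Aminotransferases pass the nitrogen of amino acids to keto acids, and glutamine synthetase binds ammonia to glutamate. In rodent liver, pck1 and tat are textbook genes that glucocorticoids induce, and in rat skeletal muscle glutamine synthetase is. In vertebrate brain and retina, glutamine synthetase is also a marker of astroglia and Müller glia.

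No array had a saturated spot, and 11 of the 12 arrays had 31210 to 37401 spots well above background. Replicate 3 of DMSO at 24 hpf stood apart, with 16764 such spots and a lowest signal of 42.8 scanner units against 2.36 to 3.89 on the others. Its dimmest probes read higher than on its 2 fellow replicates, and some of the values that rest on it are given with and without it. Changes of single genes beyond these 9 are given only with it. The authors also deposited log2 values in a second table, and its treatment labels are the reverse of those on the scanner arrays. All directions here use the labels of the scanner arrays, and as labelled the table turns the sign of all 10 calls at 24 hpf and all 12 at 72 hpf on these genes. Signals are the scanner's processed intensity brought to a common scale, in which each array's 75th percentile is 864 units. Levels of different probes cannot be compared. At 24 hpf, 6 of 10 liver, 8 of 8 muscle, 5 of 7 erythroid, 3 of 7 pronephros and 2 of 6 ionocyte markers were well above background on all 3 DMSO arrays, and at 72 hpf all of them were. The 24 hpf counts include replicate 3, whose lowest signal well above background was 215 units, against 13.7 and 14 on its fellow replicates. On the 3 beclomethasone arrays of 24 hpf the counts were 9, 8, 7, 6 and 5. In whole embryos, fewer cells of a type and less RNA per cell cannot be told apart.

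Beclomethasone raised the phosphoenolpyruvate carboxykinase transcripts at both stages, although the rise on pck1 probe A_15_P151946 was not called at 24 hpf. It raised glutamine synthetase transcripts at 72 hpf and, depending on the probe, at 24 hpf, and the estimates for the 3 aspartate aminotransferase genes lay within 1.24-fold of DMSO at 6 of their 7 probes. A call is an adjusted p below 0.05 in limma over 36058 probes. At 24 hpf, 9 of the 22 probes were called higher and 1 lower in beclomethasone, and the 10 calls fell in 7 genes. Of all probes tested at that stage, 22.0% were called, 12.2% higher and 9.81% lower. At 72 hpf, 11 probes were called higher and 1 lower, in 5 genes, against 9.25% of all probes, 4.53% higher and 4.72% lower. Without regard to the test, the treated and control arrays did not overlap on 13 probes that were higher and 3 that were lower at 24 hpf (19.3% and 20.7% of all probes), and on 13 and 1 at 72 hpf (16.7% and 18.8%). The median log2 fold change of the 22 probes was 0.22 at 24 hpf and 0.66 at 72 hpf, beside -0.09 and 0.00 for all probes. The split of all calls at 24 hpf, 4403 higher and 3536 lower, became 3545 and 5601 when arrays were centred on their medians, and 4114 and 9992 after another background correction (normexp). The median of all probes at 24 hpf moved from -0.09 to -0.16 with median centring and to 0.04 with quantile normalization. Without replicate 3 of DMSO at 24 hpf, 12 of the 22 probes were called at 24 hpf and 13 at 72 hpf. A fit with the slide as a block, in which 1 treated array stands beside 3 DMSO arrays at 24 hpf and 3 beside 1 at 72 hpf, called 3 and 7.

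**Figure D1:**
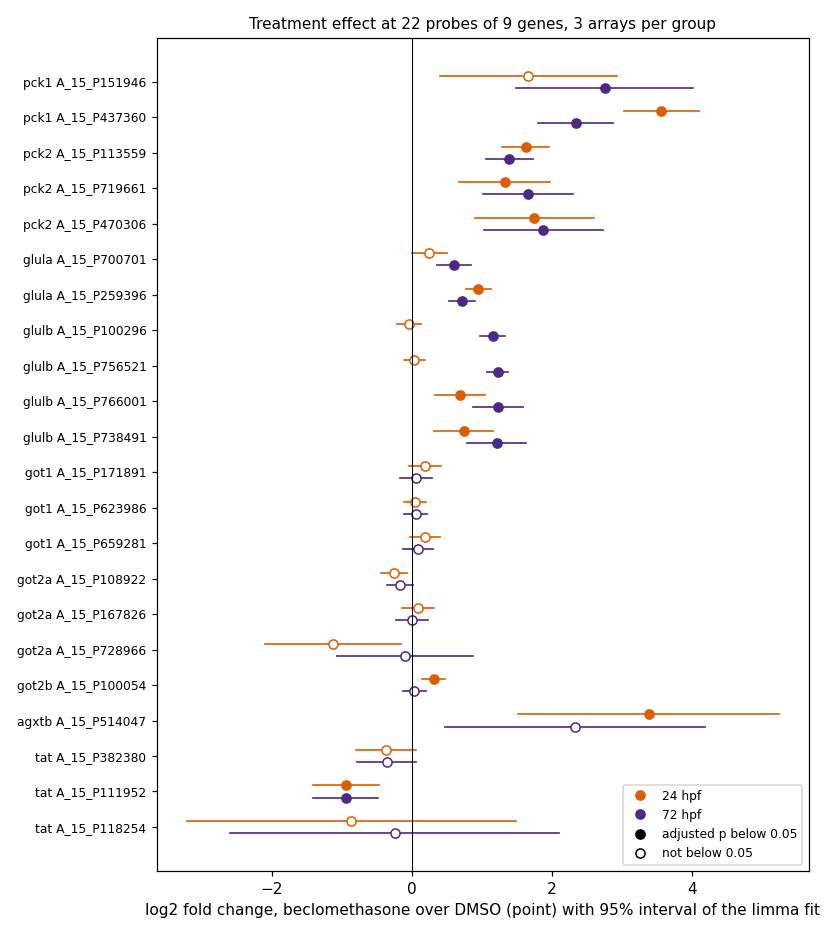
Log2 fold change of beclomethasone over DMSO (horizontal axis) for the 22 tested probes of the 9 genes, at 24 hpf (orange) and 72 hpf (purple), with 95% intervals from the limma fit over 12 arrays. Filled points have an adjusted p below 0.05. The pck1, pck2 and glulb probes lie to the right of 0 at 72 hpf, and the got1 and got2b probes lie near 0 at that stage. The points of the tat probes lie left of 0 at both stages, with filled points on 1 of them, and the intervals of the others cross 0. For agxtb and tat A_15_P118254 no DMSO array at 24 hpf was well above background. Their points at that stage rest on measured signals and are not settled folds.

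The cytosolic enzyme gene pck1 was read by 2 probes. With probe A_15_P437360 the 3 DMSO arrays at 24 hpf read 41.9, 33.9 and 60.4 units, and the 3 beclomethasone arrays 514, 509 and 534. At 72 hpf, DMSO read 141, 155 and 86.5, and beclomethasone 641, 606 and 632. The groups were far apart at both stages, and the beclomethasone arrays of the 2 stages lay within a narrow band. The log2 fold change was 3.56 ± 0.24 (SE, n = 3 arrays per group, adjusted p = 3.53e-05) at 24 hpf, which ranked 17 from the top among all 36058 probes, and 2.34 ± 0.24 (adjusted p = 0.000277) at 72 hpf, rank 113. Within slide 1, with 1 beclomethasone and 3 DMSO arrays, the 24 hpf difference was 3.54. Within slide 3, with 3 beclomethasone arrays and 1 DMSO array, the 72 hpf difference was 2.86. The rise was smaller at 72 hpf by 1.22 ± 0.34 on the log2 scale, which was not called (adjusted p = 0.0572). It was called without replicate 3 of DMSO at 24 hpf (-1.45, adjusted p = 0.0146) or at 72 hpf (-1.48, adjusted p = 0.0222), and with array weights (-1.52, adjusted p = 0.00423). On the other pck1 probe, A_15_P151946, this difference had the opposite sign (1.09 ± 0.79) and was not called either (limma, adjusted p = 0.414). Over 22 other settings it ran there from 0.36 to 1.76, with 1 call. The 2 probes thus give no common direction for the difference between stages.

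The other pck1 probe, A_15_P151946, read 48.3, 46.8 and 215 units in DMSO at 24 hpf and 247, 217 and 288 in beclomethasone. The third DMSO value comes from the array that stood apart. On that probe the 24 hpf log2 fold change was 1.66 ± 0.56 and was not called (adjusted p = 0.0616). Without that array it was 2.39 and was called (adjusted p = 0.00177). At 72 hpf, DMSO read 148, 396 and 196 and beclomethasone 1250, 1680 and 1660, with no overlap. The log2 fold change there was 2.75 ± 0.56 (adjusted p = 0.0138). It missed the threshold without replicate 1 of DMSO (adjusted p = 0.0593), replicate 2 of beclomethasone (0.0581) or replicate 3 of beclomethasone (0.0551), and with slide as a block (2.95, adjusted p = 0.188).

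The mitochondrial enzyme gene pck2 rose on each of its 3 probes at both stages. Its brightest probe, A_15_P113559, read 6340, 5780 and 5940 units in DMSO and 20000, 17800 and 17800 in beclomethasone at 24 hpf. At 72 hpf it read 9760, 11600 and 7980 in DMSO and 26300, 29000 and 21200 in beclomethasone. The treated arrays were higher than every control array of both stages. The log2 fold change was 1.62 ± 0.15 (adjusted p = 0.00021) at 24 hpf and 1.39 ± 0.15 (adjusted p = 0.000371) at 72 hpf, about 3.07-fold and 2.62-fold. The rises of the brightest probe were called under each of the 23 other settings tried at both stages, the deposited table as labelled left aside, and ranged from 1.54 to 1.73 at 24 hpf and from 1.25 to 1.67 at 72 hpf. The probe A_15_P719661 gave 1.32 ± 0.29 (adjusted p = 0.0113) and 1.66 ± 0.29 (adjusted p = 0.00601), from signals of 346 to 764 in DMSO and 1050 to 1250 in beclomethasone at 24 hpf. The dimmest, A_15_P470306, gave 1.74 ± 0.38 (adjusted p = 0.0114) and 1.87 ± 0.38 (adjusted p = 0.0134), from signals between 21.8 and 210. On both dimmer probes the highest DMSO value at 24 hpf came from replicate 3, and without it their log2 fold changes were 1.70 and 2.16. With slide as a block neither passed at 24 hpf (adjusted p = 0.101 and 0.0607) or at 72 hpf (0.103 and 0.134), nor did they with the 6 arrays of 24 hpf alone (0.0796 and 0.0805). At 72 hpf the dimmest was also not called with quantile normalization (adjusted p = 0.159), without replicate 1 of DMSO (0.0568) or without replicate 2 of beclomethasone (0.0627). The size of the pck2 rise was not called different between stages on any probe (-0.23 ± 0.21, 0.33 ± 0.41 and 0.13 ± 0.53).

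**Figure D2:**
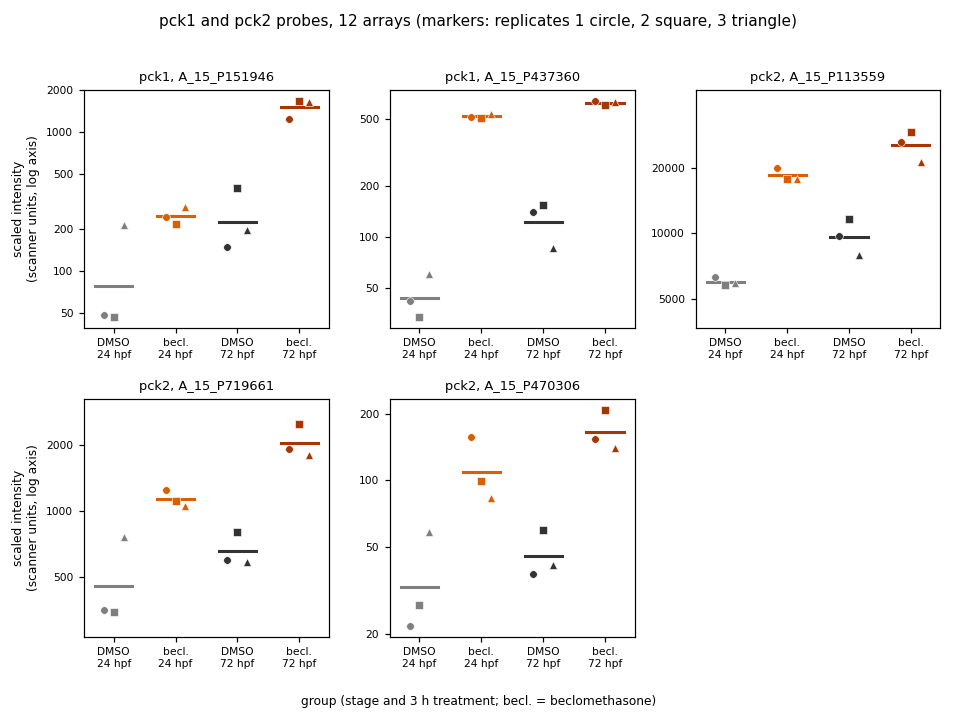
Signals of the 2 pck1 and 3 pck2 probes on each of the 12 arrays (vertical log axis, scaled intensity in scanner units), in the 4 groups of 3 arrays. Lines are geometric means and marker shapes give the replicate number. The beclomethasone arrays lie above the DMSO arrays of the same stage on all 5 probes, and DMSO replicate 3 at 24 hpf (triangle, first group) lies above its fellow replicates on 4 of them.

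Among 11939 named genes, those most like pck1 at its brighter probe over the 12 arrays were fes, tmem41ab, slc13a2, chac1 and spega, with Pearson's r between 0.9466 and 0.9628. For pck2 they were myoz2b, stk35, slc16a3b, mmadhca and mid1ip1l, with r between 0.9653 and 0.9686. The 12 arrays fall into the same 4 groups for every gene, so these values describe a shared pattern of group means. Of the genes like pck2, stk35, a protein kinase gene, rose by 3.70 ± 0.16 on the log2 scale at 24 hpf and by 2.78 ± 0.16 at 72 hpf. The monocarboxylate transporter gene slc16a3b rose by 1.05 ± 0.09 and 1.11 ± 0.09. Both were picked for likeness to pck2 on these same arrays, so their rises are no separate evidence. Of the genes like pck1, fes and tmem41ab were not called at 24 hpf (limma, adjusted p = 0.213 and 0.399), while slc13a2, chac1 and spega were called higher. The probe A_15_P437360 of pck1 correlated with pck2 at r = 0.974, and the other pck1 probe at 0.83.

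Of the glutamine synthetase genes of zebrafish, 2 were read here, glula and glulb. For glula, probe A_15_P259396 read 403, 450 and 391 units in DMSO and 857, 801 and 742 in beclomethasone at 24 hpf, then 3340, 3170 and 3170 against 5320, 5020 and 5550 at 72 hpf. Neither pair of groups overlapped, and the step between stages was larger than the step with treatment. The log2 fold changes with treatment were 0.95 ± 0.08 (adjusted p = 0.000137) and 0.71 ± 0.08 (adjusted p = 0.000499). Probe A_15_P700701 read 2910, 2940 and 2500 against 3850, 3020 and 3080 at 24 hpf, a log2 fold change of 0.25 ± 0.11 that was not called (95% interval of 0.00 to 0.49, adjusted p = 0.136). At 72 hpf it read 9440, 9350 and 8580 against 14500, 12900 and 14100, a rise of 0.60 ± 0.11 (adjusted p = 0.00777). Both glula probes thus rose at 72 hpf, 1.52-fold and 1.64-fold, and 1 of the 2 at 24 hpf.

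The glulb gene was read by 4 probes, all of which rose at 72 hpf by 1.15 to 1.22 on the log2 scale, or 2.22 to 2.33-fold. The brightest, A_15_P100296, read 33300, 29700 and 29000 units in DMSO and 71000, 62700 and 70400 in beclomethasone at that stage (1.15 ± 0.08, adjusted p = 2.05e-05). At 24 hpf the same probe read 65700, 62400 and 63500 in DMSO and 64000, 63000 and 59200 in beclomethasone, and the groups overlapped (-0.04 ± 0.08, 95% interval of -0.22 to 0.13, adjusted p = 0.715). Probe A_15_P756521 was not called at 24 hpf either, with 26800 to 27400 against 27400 to 28400 (0.03 ± 0.07, adjusted p = 0.743). Before rounding, its treated arrays there lay just above the DMSO arrays, without overlap. At 72 hpf it read 13900 to 16000 against 35000 to 35500 (1.22 ± 0.07, adjusted p = 5.45e-06). On these 2 probes the treatment effect differed between the stages, by 1.19 ± 0.11 (adjusted p = 0.00083) and 1.19 ± 0.09 (adjusted p = 0.000326). They were the only 2 of the 22 probes with such a call, against 7.77% of all probes, 2.55% in this direction and 5.21% in the other. That split was 921 and 1879 calls, which normexp turned to 5878 and 2869 and median centring to 1356 and 1669. With slide as a block the first of them was at 1.23 and missed the threshold (adjusted p = 0.0509).

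The 2 dimmer glulb probes gave another picture at 24 hpf. A_15_P766001 read 2520, 3770 and 3870 units in DMSO and 5860, 5580 and 4650 in beclomethasone (0.68 ± 0.16, adjusted p = 0.015), and A_15_P738491 read 919, 1590 and 1420 against 2380, 2220 and 1830 (0.74 ± 0.19, adjusted p = 0.0213). Their groups did not overlap, and the lowest DMSO value of both came from replicate 1. Neither call held without replicate 1 of beclomethasone (adjusted p = 0.0575 and 0.0761) or without replicate 2 of beclomethasone (0.0605 and 0.0768), with slide as a block (0.0946 and 0.11) or with the 6 arrays of 24 hpf alone (0.106 and 0.122). At 72 hpf these probes rose by 1.22 ± 0.16 and 1.21 ± 0.19 (adjusted p = 0.00115 and 0.0032), like the brighter pair, and the second was not called with slide as a block (adjusted p = 0.0958). The difference between stages on them, 0.54 ± 0.22 and 0.47 ± 0.26, was not called (adjusted p = 0.167 and 0.298), but was without replicate 1 of DMSO at 24 hpf (0.74 and 0.70, adjusted p = 0.0243 and 0.0456).

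**Figure D3:**
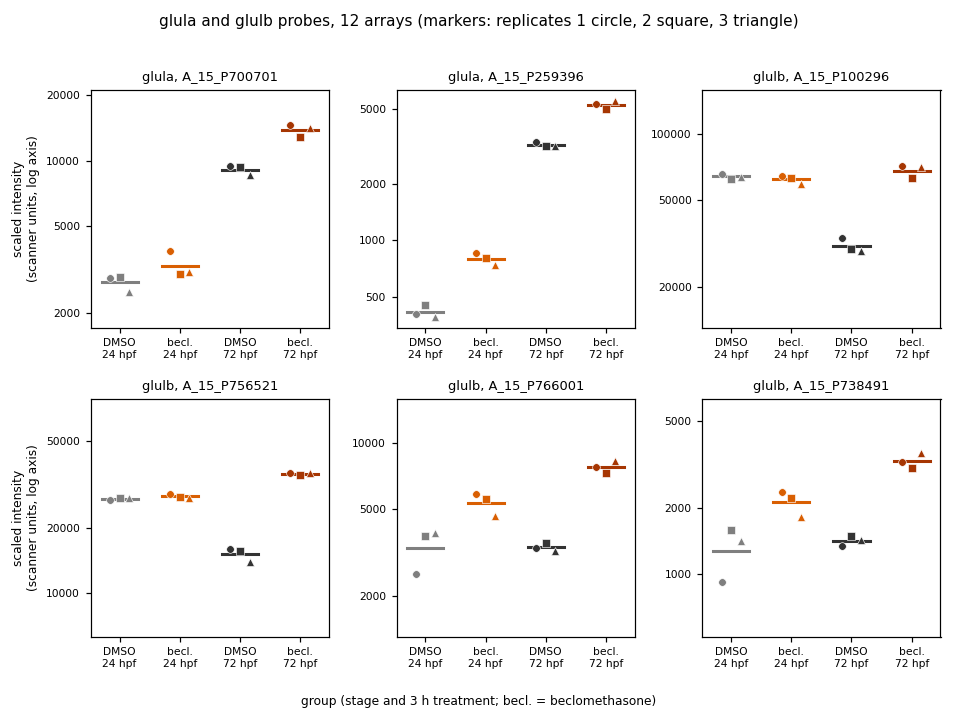
Signals of the 2 glula and 4 glulb probes on the 12 arrays (vertical log axis, scaled intensity in scanner units), with lines for geometric means and marker shapes for replicate numbers. The glula probes rise from 24 to 72 hpf, the 2 bright glulb probes are lowest in DMSO at 72 hpf, and all 6 probes are higher in beclomethasone than in DMSO at 72 hpf.

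Probes of the same gene moved unequally. Within each array, the log2 ratio of pck1 probe A_15_P437360 to A_15_P151946 was 1.06, 1.23 and 0.89 on the beclomethasone arrays at 24 hpf. It was -0.97, -1.47 and -1.39 on the beclomethasone arrays at 72 hpf, and between -1.83 and -0.07 on the 6 DMSO arrays. The lowest of these came from replicate 3 of 24 hpf, and the next was -1.35. The ratio was higher on the 3 treated arrays at 24 hpf than on any of the other 9. For glula, the ratio of A_15_P259396 to A_15_P700701 lay between -2.85 and -2.67 in DMSO and between -2.17 and -1.92 in beclomethasone at 24 hpf, and between -1.56 and -1.35 on all arrays at 72 hpf. For glulb, the ratio of A_15_P766001 to A_15_P100296 lay between -4.71 and -4.04 in DMSO and between -3.67 and -3.45 in beclomethasone at 24 hpf, and between -3.33 and -3.09 at 72 hpf. The pair A_15_P738491 and A_15_P756521 showed the same order. Whether any of these probes also binds the transcript of a paralogue was not tested.

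**Figure D4:**
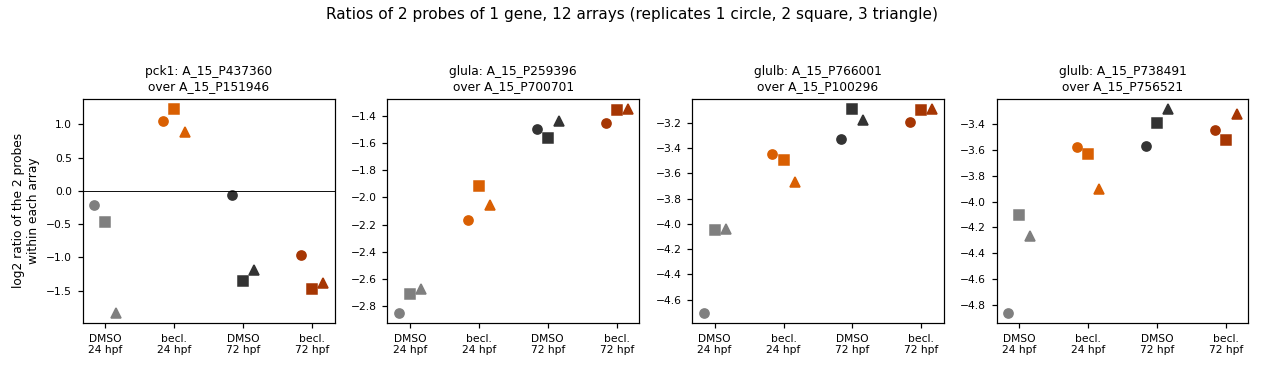
Log2 ratio of 2 probes of the same gene within each of the 12 arrays (vertical axis), by group, with marker shapes for replicate numbers. The pck1 ratio is highest on the 3 beclomethasone arrays at 24 hpf, and the glula and glulb ratios are lowest in DMSO at 24 hpf and close to each other in the 2 groups at 72 hpf.

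Of the aminotransferases, agxtb had the widest span of signals. Its single probe, A_15_P514047, read 4.96, 4.63 and 64 units in DMSO at 24 hpf, where it was well above background on no array, and 112, 111 and 132 in beclomethasone. The DMSO group has only an upper bound, so beclomethasone was at least 2.4-fold higher, and at least 5.79-fold higher without replicate 3. The bound takes each DMSO array at the lowest signal well above background on it, and was not itself tested. Limma, on the measured signals, called the rise (adjusted p = 0.0188, and 2.18e-06 without replicate 3). That call missed the threshold without replicate 1 of DMSO (adjusted p = 0.0619), without replicate 1, 2 or 3 of beclomethasone (0.0536, 0.0598 and 0.0507), with slide as a block (0.178) and with the 6 arrays of 24 hpf alone (0.12). At 72 hpf the probe read 700, 421 and 463 in DMSO and 2400, 2590 and 2760 in beclomethasone, and the groups lay far apart. The log2 fold change of 2.32 ± 0.83 was not called, however (95% interval of 0.47 to 4.18, adjusted p = 0.133). The spread in this fit is shared by all 4 groups, and it was called without the 24 hpf DMSO replicate 3 (2.32, adjusted p = 3.27e-05) and with the 6 arrays of 72 hpf alone (adjusted p = 0.00159). The difference between stages was not called (-1.05 ± 1.17, adjusted p = 0.597). Without that replicate the rise was called smaller at 72 than at 24 hpf (-2.30, adjusted p = 0.00162), and after normexp it was called larger (0.99 ± 0.21, adjusted p = 0.00946). The DMSO group at 24 hpf was below the background test, and this difference has no settled size or direction.

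The cytosolic aspartate aminotransferase gene got1 was not called for treatment on any of its 3 probes. Its brightest, A_15_P171891, read 3520, 3920 and 3900 units in DMSO and 4300, 4380 and 4220 in beclomethasone at 24 hpf (0.19 ± 0.10, 95% interval of -0.04 to 0.42). At 72 hpf it read 7690, 7910 and 9690 against 7960, 8780 and 9520 (0.06 ± 0.10, 95% interval of -0.17 to 0.29). Over the 3 probes and both stages, the 95% intervals ran from -0.17 to 0.42, so that a change of 1.5-fold in either direction lies outside them. Probe A_15_P659281 was called higher at 24 hpf in 1 of 22 other settings (limma, adjusted p = 0.0265), where its values ran from 0.07 to 0.29.

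For the mitochondrial paralogues, got2b probe A_15_P100054 read 24300, 26400 and 24900 units in DMSO and 31400, 32000 and 30100 in beclomethasone at 24 hpf, without overlap. This rise of 0.31 ± 0.07 was called (adjusted p = 0.015), and it was not called with each array centred on its median (0.23, adjusted p = 0.066), without replicate 2 of beclomethasone (0.29, adjusted p = 0.0641), with slide as a block (adjusted p = 0.105) or with the 6 arrays of 24 hpf alone (0.0698). At 72 hpf the probe read 57800, 60500 and 53300 against 60300, 60100 and 55200 (0.03 ± 0.07, 95% interval of -0.13 to 0.19), and the difference between stages was not called (-0.28 ± 0.10, adjusted p = 0.125). For got2a the brightest probe, A_15_P108922, read 784, 760 and 687 in DMSO and 627, 614 and 630 in beclomethasone at 24 hpf. Its log2 fold change of -0.25 ± 0.08 was not called (adjusted p = 0.0569). It was called without replicate 3 of DMSO at 24 hpf (-0.31, adjusted p = 0.0285), without replicate 1 of DMSO at 72 hpf (adjusted p = 0.0403) and with each array centred on its median (-0.33, adjusted p = 0.0155). The replicate numbers pair the arrays at 72 hpf, and with that block it was called too (-0.25, adjusted p = 0.0334). Of the other 2 got2a probes, A_15_P167826 had intervals within -0.23 and 0.31, and the dim A_15_P728966 read 30.9, 22.8 and 94.6 units in DMSO at 24 hpf, the highest from replicate 3. Its log2 fold change was -1.12 ± 0.43 and was not called (adjusted p = 0.0938). Without replicate 3 it was -0.51 (adjusted p = 0.08), and it was called without replicate 2 of DMSO (-1.54, adjusted p = 0.0264) and after normexp (-0.77, adjusted p = 0.027).

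The tat gene, which encodes the enzyme of the first step of tyrosine breakdown, was dim on all 5 of its probes, and 2 of them were well above background in no group and not tested. Probe A_15_P111952 read 46.2, 44.2 and 65.6 units in DMSO and 29.4, 23.7 and 27 in beclomethasone at 24 hpf, then 56.7, 48.8 and 37.1 against 25.9, 19.7 and 28.1 at 72 hpf. The treated arrays were below every DMSO array at both stages. It fell by 0.94 ± 0.21 on the log2 scale (adjusted p = 0.012) at 24 hpf and by 0.95 ± 0.21 (adjusted p = 0.0198) at 72 hpf. Probe A_15_P382380 had log2 fold changes of -0.37 ± 0.19 (adjusted p = 0.191) and -0.36 ± 0.19 (adjusted p = 0.328), with overlapping groups. Over 23 other settings, the deposited table as labelled left aside, it ran from -0.60 to 0.89 at 24 hpf, with 2 calls and 1 turn of sign. At 72 hpf it ran from -0.51 to -0.18, with 0 calls. The third, A_15_P118254, was well above background on no DMSO array at 24 hpf and on 2 of the 3 beclomethasone arrays, so that no fold is given there, and it was not called at 72 hpf (-0.25 ± 1.04). The fall on A_15_P111952 at 24 hpf was -0.77 without replicate 3 of DMSO (adjusted p = 0.0196). It was not called without replicate 2 of beclomethasone (-0.86, adjusted p = 0.0545), with quantile normalization (-0.46, adjusted p = 0.231), with slide as a block (-0.80, adjusted p = 0.127), with the 6 arrays of 24 hpf alone (adjusted p = 0.0527) or in the deposited table joined to the matching arrays (-0.29, adjusted p = 0.302). At 72 hpf it was not called without DMSO replicate 1 or 2 (adjusted p = 0.0793 and 0.0664), without beclomethasone replicate 1 or 2 (0.0511 and 0.0844), or with slide as a block (-0.61, adjusted p = 0.427).

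**Figure D5:**
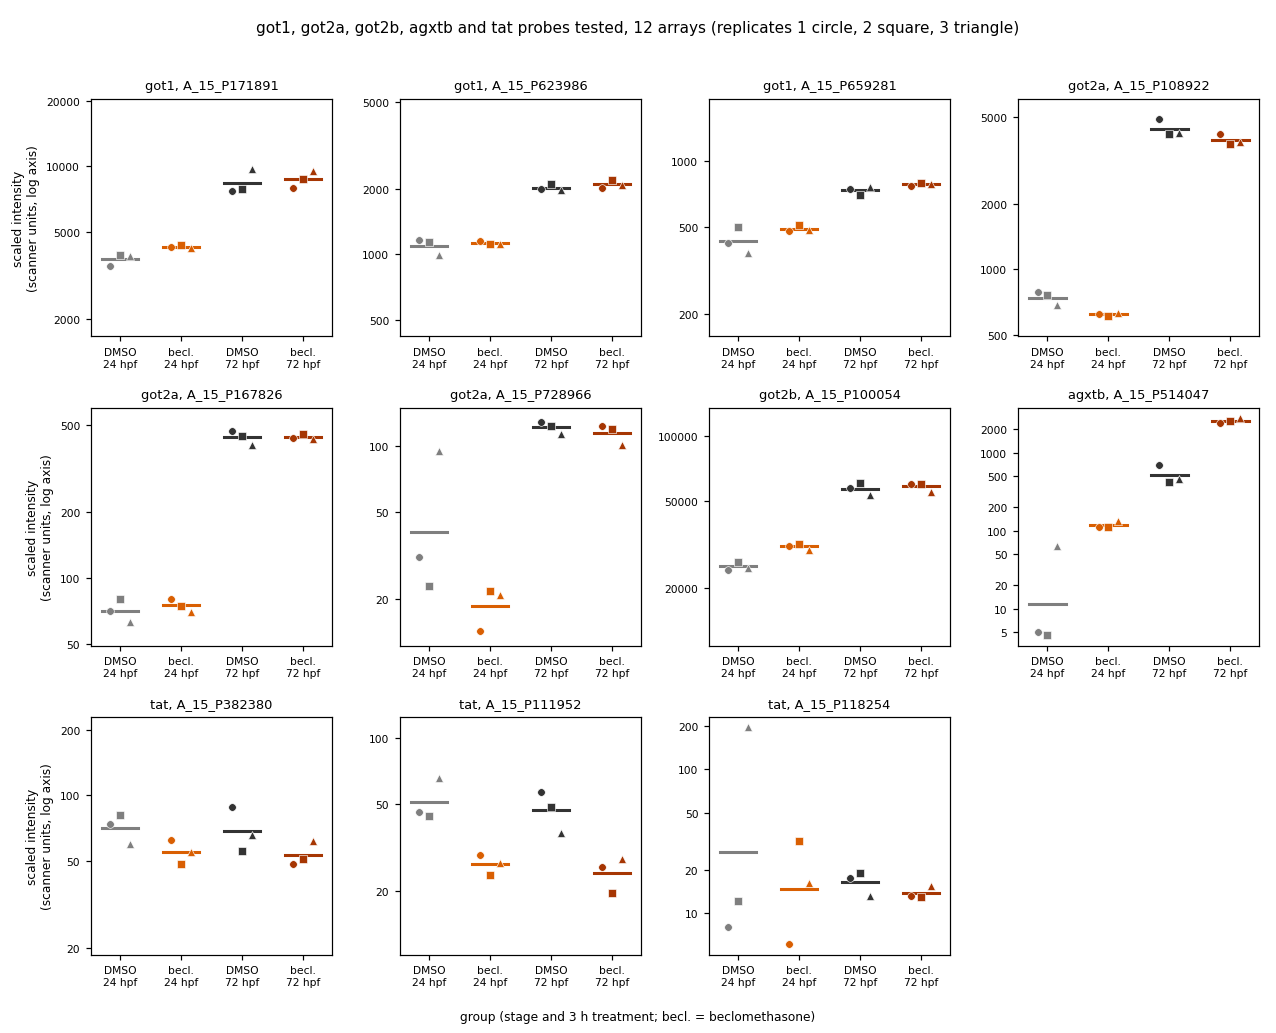
Signals of the 11 tested probes of got1, got2a, got2b, agxtb and tat on the 12 arrays (vertical log axis, scaled intensity in scanner units), with lines for geometric means and marker shapes for replicate numbers. The got1, got2a and got2b probes separate the stages, agxtb separates all 4 groups, and tat A_15_P111952 separates beclomethasone from DMSO at both stages.

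Between 24 and 72 hpf in DMSO, 13 of the 22 probes rose and 2 fell, in 8 of the 9 genes, where 66.4% of all probes were called, 30.3% higher and 36.1% lower. No slide held DMSO arrays of both stages, so that stage and slide cannot be told apart within DMSO. With slide as a block, 13 of the 22 probes were called. The split of all calls, 10918 higher and 13025 lower, became 8004 and 17104 with median centring and 9422 and 19044 after normexp. Of the aminotransferase genes, agxtb, got1, got2a and got2b rose, and the 3 tested tat probes were not called (-0.05, -0.13 and -0.71). All 3 were called lower after normexp (-0.40, -0.41 and -1.11). The third of them, A_15_P118254, was well above background on no DMSO array at 24 hpf. There it read 8.12, 12.2 and 195 units, the last from replicate 3, against 17.5, 19 and 13.3 in DMSO at 72 hpf. The agxtb signal was at least 10.5-fold higher, and at least 25.3-fold higher without DMSO replicate 3. Limma, on the measured signals, called this rise (adjusted p = 0.000211). For got2a it was 2.56 ± 0.08 and 2.64 ± 0.10 on the log2 scale on its 2 brighter probes (adjusted p = 7.52e-09 and 1.76e-08), for got2b 1.18 ± 0.07 (adjusted p = 3.39e-07) and for got1 0.78 to 1.15. The glutamine synthetase genes went in opposite directions. The 2 glula probes rose by 1.72 ± 0.11 and 2.96 ± 0.08 (adjusted p = 4.77e-07 and 2.95e-09), and the 2 bright glulb probes fell by 1.06 ± 0.08 and 0.84 ± 0.07 (adjusted p = 1.23e-06 and 1.81e-06). The 2 dimmer glulb probes were at 0.00 ± 0.16 and 0.15 ± 0.19 and were not called. The signs on the called glula and glulb probes were the same under each scaling tried. Of pck1, both probes rose, by 1.49 ± 0.24 (adjusted p = 0.000323) and 1.52 ± 0.56 (adjusted p = 0.0357), the second with overlapping groups. The second was called in 12 of 22 other settings, with values from 0.60 to 2.25. It was not called without DMSO replicate 1 or 2 at 24 hpf (adjusted p = 0.123 and 0.125) or 2 or 3 at 72 hpf (0.131 and 0.0591), nor with median centring (0.0979), quantile normalization (0.0735), normexp (0.124), slide as a block (0.315), the 6 DMSO arrays alone (0.133) or the deposited table joined to the matching arrays (0.0619). The brightest pck2 probe rose by 0.68 ± 0.15 (adjusted p = 0.00239), and by 0.36 with median centring, which was not called (adjusted p = 0.0758). That centring moves the median of all probes from -0.08 to -0.41.

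In beclomethasone, 16 of the 22 probes were higher at 72 than at 24 hpf and 0 lower by limma, with 0 lower at an unadjusted p below 0.05 too, where 67.6% of all probes were called, 33.0% higher and 34.7% lower. Here too, no slide held both stages of the treatment, so that stage and slide cannot be told apart within it. With slide as a block, 12 of the 22 probes were called. With arrays centred on their medians 11 of the 22 were called, and the split of all calls went from 11884 higher and 12501 lower to 8916 and 16067. The bright glulb probe A_15_P100296 was at 0.13 ± 0.08 in this comparison (adjusted p = 0.161). Its signals in beclomethasone at 72 hpf, 62700 to 71000 units, overlapped those of both groups at 24 hpf. For pck1 probe A_15_P437360 the log2 difference was 0.27 ± 0.24 (adjusted p = 0.335), although the groups did not overlap, and for probe A_15_P151946 it was 2.61 ± 0.56 (adjusted p = 0.00225). The agxtb probe rose by 4.45 ± 0.83 (adjusted p = 0.00091). By mean level, all 7 pck1, pck2 and dimmer glulb probes had the same order of groups. It ran from DMSO at 24 hpf, to DMSO at 72 hpf, to beclomethasone at 24 hpf, to beclomethasone at 72 hpf. The 2 DMSO groups overlapped on 5 of these probes. On pck1 A_15_P151946, DMSO at 72 hpf also overlapped beclomethasone at 24 hpf, and on pck2 A_15_P470306 the 2 beclomethasone groups overlapped. On the glula, got1, got2b and agxtb probes the order was by stage first, and the 2 groups at 72 hpf overlapped on got2b and on 2 of the 3 got1 probes.

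Other genes of these pathways were counted at the brightest tested probe of each. Over the 11940 named genes at that probe, 11.7% were called higher and 12.4% lower at 24 hpf, and 5.17% and 7.15% at 72 hpf. Of 12 tested gluconeogenesis genes, 8 rose and 0 fell at 24 hpf by limma (0 lower also at an unadjusted p below 0.05), and 2 rose and 1 fell at 72 hpf. The rises were led by g6pc1a.2, whose product releases free glucose as the last step, at 2.23 ± 0.18 (adjusted p = 0.000117) and 2.04 ± 0.18 (adjusted p = 0.000126). The glucose-6-phosphate carrier gene slc37a4a rose by 1.21 ± 0.17 at 24 hpf (adjusted p = 0.00192). Of the fructose-bisphosphatase genes, fbp1b rose at both stages (0.51 ± 0.10 and 0.64 ± 0.10, adjusted p = 0.00798 and 0.00372), and fbp1a fell by 0.52 ± 0.08 at 72 hpf (adjusted p = 0.00363). The median of the list was 0.35 at 24 hpf and 0.04 at 72 hpf, beside -0.09 and 0.00 for all probes. Without replicate 3 of DMSO at 24 hpf, 7 rose and 0 fell at 24 hpf, and 3 rose and 1 fell at 72 hpf. With slide as a block these counts were 3 and 0, and 1 and 0.

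Of 9 other aminotransferase genes, 2 rose and 0 fell at 24 hpf, and 1 rose and 0 fell at 72 hpf by limma. At an unadjusted p below 0.05, 4 were higher and 0 lower at 24 hpf, and 1 was higher and 1 lower at 72 hpf. The called genes were abat, which breaks down the transmitter GABA (0.37 ± 0.09 and 0.36 ± 0.09, adjusted p = 0.0216 and 0.0401), and gpt, an alanine aminotransferase gene (0.30 ± 0.09 at 24 hpf, adjusted p = 0.0473). With arrays centred on their medians, 0 of the 9 were called higher at either stage, and 1 was called lower at 72 hpf. Without replicate 3 of DMSO at 24 hpf, 1 was called higher at 24 hpf. Of 15 glutamate, urea cycle and ammonia genes, 2 rose and 2 fell at each stage, and 1 and 3 at 24 hpf without that replicate. The arginase gene arg2 rose at both (0.81 ± 0.13 and 0.74 ± 0.13, adjusted p = 0.00322 and 0.00656), while arg1 fell by 0.79 ± 0.23 at 24 hpf (adjusted p = 0.0344). The asparagine synthetase gene asns, which uses glutamine as a nitrogen donor, fell by 0.45 ± 0.08 at 24 hpf (adjusted p = 0.00484). The ammonia channel gene rhcga had the largest change in the list, a rise of 4.91 ± 0.46 at 72 hpf (adjusted p = 0.000164), and its effect differed between the stages (4.97 ± 0.65, adjusted p = 0.00417).

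In a list of genes of tyrosine, tryptophan, proline and glycine breakdown and relatives of them, 17 were tested. Of these, 1 rose and 3 fell at 24 hpf (0 and 3 without replicate 3 of DMSO), and 1 rose and 2 fell at 72 hpf. The 3 that fell at 24 hpf were fahd1, aldh4a1 and gcsha. The listed genes sds, sdsl, prodha and prodhb were not found on the array, so that no serine breakdown gene was tested. Downstream of tat, the gene hpda rose by 0.55 ± 0.15 at 24 hpf (adjusted p = 0.0317). The glycine decarboxylase gene gldc rose by 1.91 ± 0.09 at 72 hpf (adjusted p = 3.08e-06), and more so than at 24 hpf (1.73 ± 0.13, adjusted p = 0.000309). Of 12 carriers of glutamate, aspartate and neutral amino acids, 3 rose and 2 fell at 24 hpf (2 and 3 without that replicate), and 2 rose and 0 fell at 72 hpf (unadjusted, 2 and 0). The glutamine carrier gene slc1a5 rose at both stages (0.52 ± 0.14 and 1.42 ± 0.14, adjusted p = 0.0316 and 0.000277), and slc38a4 rose by 0.88 ± 0.06 at 72 hpf (adjusted p = 2.89e-05). The mitochondrial oxoglutarate carrier gene slc25a11 rose by 0.64 ± 0.09 at 24 hpf (adjusted p = 0.00189), and the amino acid carrier gene slc38a2 fell by 0.60 ± 0.09 (adjusted p = 0.00273). Of 12 known targets of the glucocorticoid receptor, 8 rose and 1 fell at 24 hpf, and 7 rose and 0 fell at 72 hpf (unadjusted, 9 and 1), in the arrays labelled beclomethasone.

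Some cell type markers moved beside these genes. At 24 hpf, 3 of 10 liver markers, 6 of 7 erythroid, 6 of 8 skeletal muscle and 4 of 5 yolk layer or gut markers were called higher in beclomethasone, beside 11.7% of all named genes. Without replicate 3 of DMSO these counts were 3, 5, 5 and 3, and with arrays centred on their medians 3, 5, 2 and 3. The muscle count thus depended on the scaling. In these 4 lists 0 were lower, at an adjusted or an unadjusted p below 0.05 by limma. Of the pronephros and ionocyte markers, 1 of 7 and 1 of 6 were called higher at each stage. The ionocyte marker called at 72 hpf was rhcga, which was also counted among the ammonia genes. Without replicate 3 of DMSO, 2 and 2 were called higher at 24 hpf. The summed signal of the liver markers was 9180 to 9930 units in DMSO and 13900 to 16700 in beclomethasone at that stage. For the erythroid markers it was 200000 to 227000 and 344000 to 367000, for muscle 750000 to 793000 and 866000 to 885000, and for the yolk layer or gut 9900 to 13200 and 15500 to 21600. Each sum adds unlike probes and is weighted to the brightest of them, so it serves only to compare groups within a list. Of the 10 liver markers, 9 were well above background on all 3 beclomethasone arrays at 24 hpf, and 6 on all 3 DMSO arrays, the dimmer-limited replicate 3 included. The larval liver marker fabp10a was not among the 3 (-0.25 ± 0.29, adjusted p = 0.568). At 72 hpf, 0 of the 10 liver markers were called by limma, adjusted or unadjusted, and the summed liver signal was 71000 to 92600 in DMSO and 74300 to 95900 in beclomethasone. All 10 liver markers rose from 24 to 72 hpf in DMSO, where 30.3% of all probes were called higher. So did 5 of 5 yolk layer or gut, 7 of 8 muscle and 6 of 7 pronephros markers, with 0, 1 and 1 lower. Of the glial, ionocyte and erythroid markers, 6 of 8, 4 of 6 and 4 of 7 rose, with 2, 0 and 1 lower. The genes agxtb, got2a and glula rose as well, and the part of any cell type in those results was not tested. Of 8 markers of radial glia and astroglia, which include glula itself, 0 were called at 24 hpf by limma (unadjusted, 1 higher and 1 lower). At 72 hpf glula rose and aqp1a.1 fell by 0.48 ± 0.06 (adjusted p = 0.000762). The summed signal of these glial markers, glula included, ran from 157000 to 173000 in DMSO and from 164000 to 174000 in beclomethasone at 72 hpf.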

How the data were processed

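Cy3 intensity values were read from 12 one-colour Agilent arrays, and per the file headers the authors subtracted background with Agilent Feature Extraction 10.7.1.1, without normalization between arrays. A deposited table of log2 values by the authors came from the same arrays, and per the submitters' processing notes limma was among the tools, with scale and centring not stated. Over 13879 probes each column of that deposited log2 table matched best the scanner array of the other treatment with the same stage and number (r of 0.988 to 0.997, against 0.658 to 0.827 for its own label). Each column has a median of 7.37 to 7.38. Scanner labels were used.

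Each array's 75th percentile was subtracted from the log2 of the processed intensity. Control spots and spots with outlier marks were left out (14 to 79 per array), and the 5 spots of a probe printed more than once were averaged. To be tested, a probe had to pass the scanner software's test for well above background on every array of at least 1 group. After 129 probes with missing values were dropped, 36058 remained, and 11940 named genes had one. RefSeq accessions, taken without versions, named 25069 of 26981 probes that carry one, for 12858 genes. Each probe of the 9 genes was kept apart.

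Group means were fitted to all 12 arrays with limma 3.58.1 in R 4.3.3 (8 residual degrees of freedom, eBayes), with Benjamini-Hochberg adjusted p-values over all probes and a threshold of 0.05. The steps were tested on simulated data. Intervals are 95%. The number of arrays limits the precision. Each slide held 4 arrays and 1 scan. Slide 1 held the 3 DMSO arrays of 24 hpf and 1 beclomethasone array, slide 2 held 2 arrays of beclomethasone at 24 hpf and 2 of DMSO at 72 hpf, and slide 3 held the remaining 4. The replicate numbers paired the arrays at 72 hpf, where same-numbered deviations correlated at 0.506 to 0.537 across probes, and not at 24 hpf (-0.09 to 0.07). The normexp alternative used median spot and background signals. This choice was made after seeing the data, since the mean spot signal that had been planned is not a column of the array files used here.

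The genes, lists and rules were chosen with earlier results of these data known. Named genes are every probe of the 9 genes, up to 4 called genes per list and comparison, described in part, and the 5 genes most like pck1 and pck2. Promoter and probe sequences were not used here.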

Additional observations from a re-analysis of the deposited data

Results flagged for a closer look

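The effect of beclomethasone on glulb, a glutamine synthetase gene, differed between the stages on its 2 bright probes in a test of the difference itself. The log2 fold change was higher at 72 than at 24 hpf by 1.193 ± 0.11 on A_15_P100296 and by 1.189 ± 0.09 on A_15_P756521 (limma, adjusted p = 0.00083 and 0.000326). All 3 treated arrays were above all 3 DMSO arrays at 72 hpf on both. On the 2 dimmer glulb probes the same difference, 0.54 and 0.47, was not called.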

How the results depend on the processing

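Of the 22 probes, 10 were called at 24 hpf, 12 at 72 hpf, 2 for the difference between stages, 15 for stage in DMSO and 16 for stage in beclomethasone. With slide as a block these counts were 3, 7 and 1 for the treatment comparisons, and 13 and 12 for stage in DMSO and in beclomethasone. With the 6 arrays of 24 hpf alone, 3 were called for treatment at that stage. With 1 probe per gene, which leaves 9 probes, they were 3, 4, 1, 8 and 7. For the difference between stages 5 were called after normexp and 5 with array weights. Leaving out 1 array gave 5 to 12 at 24 hpf (5 without beclomethasone replicate 2), 9 to 13 at 72 hpf, 2 to 4 for the difference (4 without DMSO replicate 3 at 24 hpf), 14 to 17 for stage in DMSO and 12 to 16 in beclomethasone. With the replicate block over both stages the counts were 11, 12, 2, 15 and 16. With the block at 72 hpf only, an alternative chosen after seeing the data, they were 11, 12 and 2, and no call but that of got2a A_15_P108922 at 24 hpf changed.

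Over all probes, 7939 calls at 24 hpf became 14106 after normexp, 1529 with slide as a block, 2062 with the 6 arrays of that stage, 4829 with 1 probe per gene, and 4917 and 3868 without beclomethasone replicates 1 and 2. At 72 hpf 3335 calls became 5112 after normexp, 6101 with array weights and 928 with slide as a block. For the difference, 2800 became 8747, 6228 and 63.

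As labelled, the deposited table reversed the calls. At 24 hpf it gave -3.15 for pck1, -1.70, -1.18 and -1.67 for pck2, -0.87 for glula, -0.75 and -0.73 for glulb, -0.34 for got2b, -3.42 for agxtb and 0.29 for tat. At 72 hpf it gave -2.74 and -2.22 for pck1, -1.31, -1.67 and -1.53 for pck2, -0.58 and -0.72 for glula, -1.11, -1.18, -1.20 and -1.20 for glulb, -2.29 for agxtb and 0.71 for tat. The difference between stages became -1.11 and -1.08 for glulb and 1.13 for agxtb. The bright glulb probes became 0.13 and 0.33 for stage in DMSO, and -0.98 and -0.75 in beclomethasone. The agxtb difference was also reversed after normexp (0.99), and the cause was not tested. Of all 2509 comparisons of a probe with a setting, 128 others changed sign, all called in neither fit. Dim probes (tat, agxtb at 24 hpf, got2a A_15_P728966) are limited by signal over background.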
